A study of Mus musculus with 2 samples.

Results

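The genes described here are 51 components and regulators of DNA replication origins and forks, read from arrays of the mouse T-cell line P5424. They were chosen by name, and every non-control probe that carries one of the names was used, which gave 72 probes and all 51 names among the 34844 gene names of the array. Total RNA was hybridised to 2 one-colour Agilent mouse arrays with probes of 60 bases. Per the labels, both samples are P5424 cells of the genotype Rag2 and P53 knockout, cultured in RPMI1640 medium, to which serum and 2-mercaptoethanol were added, and given no treatment. They form 1 group, replicate 1 and replicate 2, so no condition, genotype or time is compared, and there is no control group. P5424 is 1 line, and whether the replicates are separate cultures is not stated, so the differences between the arrays can be technical.

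A chromosome is copied from many origins, and each origin fires at most once in a cell cycle. The origin recognition complex binds the origin, and Cdc6 and Cdt1 load the ring-shaped Mcm2 to Mcm7 helicase onto it, a step called licensing. In S phase the kinase of Cdc7 and Dbf4, with the cyclin-dependent kinases, lets Cdc45 and the GINS complex join the ring, and the active helicase (CMG, for Cdc45, MCM and GINS) opens the DNA for primase and the polymerases. Thymocytes divide rapidly at some stages of their development, and many of these genes are known targets of the E2F transcription factors, which act at entry into S phase.

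Values are log2 of the background-subtracted signal relative to the 75th percentile of the array, given as mean ± SD over the 2 arrays (n = 2), so a value of 0 is that percentile. A probe is called detected where each array's scanner flag put it well above background, and where several probes of a gene were detected the gene takes the brightest one's value. Signal depends on the probe sequence as well as on the transcript, so no amount of one transcript is read from its value beside another's. Of 55681 probes, 23649 were well above background on replicate 1, 22923 on replicate 2 and 22321 on both. The 75th percentile lay at 324 and 299 intensity units, and the 308 negative control spots reached at most 15.1 units on replicate 1 and 101 on replicate 2. Across the detected probes the arrays correlated with r = 0.994, where probes are not independent replicates. All 10 T-lineage marker genes were detected, against 1 of 4 B-cell genes (Cd79a), 2 of 4 myeloid genes (Csf1r and Cd14) and 0 of 5 fibroblast, epithelial or endothelial genes. Mpo, a myeloid gene, was detected on 1 array only. On replicate 2, Cd79a (42.5 units) and Cd14 (47.0) lay below the highest negative control spot. Summed over each marker list, the signals were 551737 and 469593 units for the T lineage, 102 and 87.2 for B cells, 166 and 219 for myeloid cells and 56.1 and 80.3 for the other cells. The lists differ in length and probes, and the sums include undetected genes, so no share of cells is read from them. Rag2 gave 2132 and 2086 units and Trp53, the gene of P53, gave 746 and 996. The deleted parts are not given in the labels, and a probe outside them checks nothing about a knockout.

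All 51 replication genes were detected. The share over all gene names was 46.1%, and over the 20061 names of protein-coding genes it was 54.0%. Genes with more probes have more chances to be detected. Of the protein-coding names with 1 probe, 47.6% were detected, and all 34 replication genes with 1 probe were. Names with 2 probes reached 65.1%, beside 15 of 15 replication genes, and names with 3 or more reached 72.8%, beside 2 of 2. Every probe of the gene was well above background for 48 of the 51, where the share of protein-coding names was 46.6%. The exceptions were Rfc5, Pole and Wdhd1, each with 1 probe under 20 units on both arrays. Of the 69 detected probes, 5 had signals on replicate 2 below the highest negative control spot of that array, 1 each of Orc3, Mcm9, Cdc7, Prim2 and Rnaseh2a, and none of these was the probe that gave the gene its value.

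Their signals lay above the 75th percentile on both arrays for 49 of the 51 genes, where 67.1% of all detected gene names did. Cdc7 and Mcm9 were the exceptions. The median value was 4.29, beside 1.70 over all detected names and 2.21 over the detected protein-coding names, and the range ran from -1.33 (Cdc7) to 8.29 (Mcm6).

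**Figure D1:**
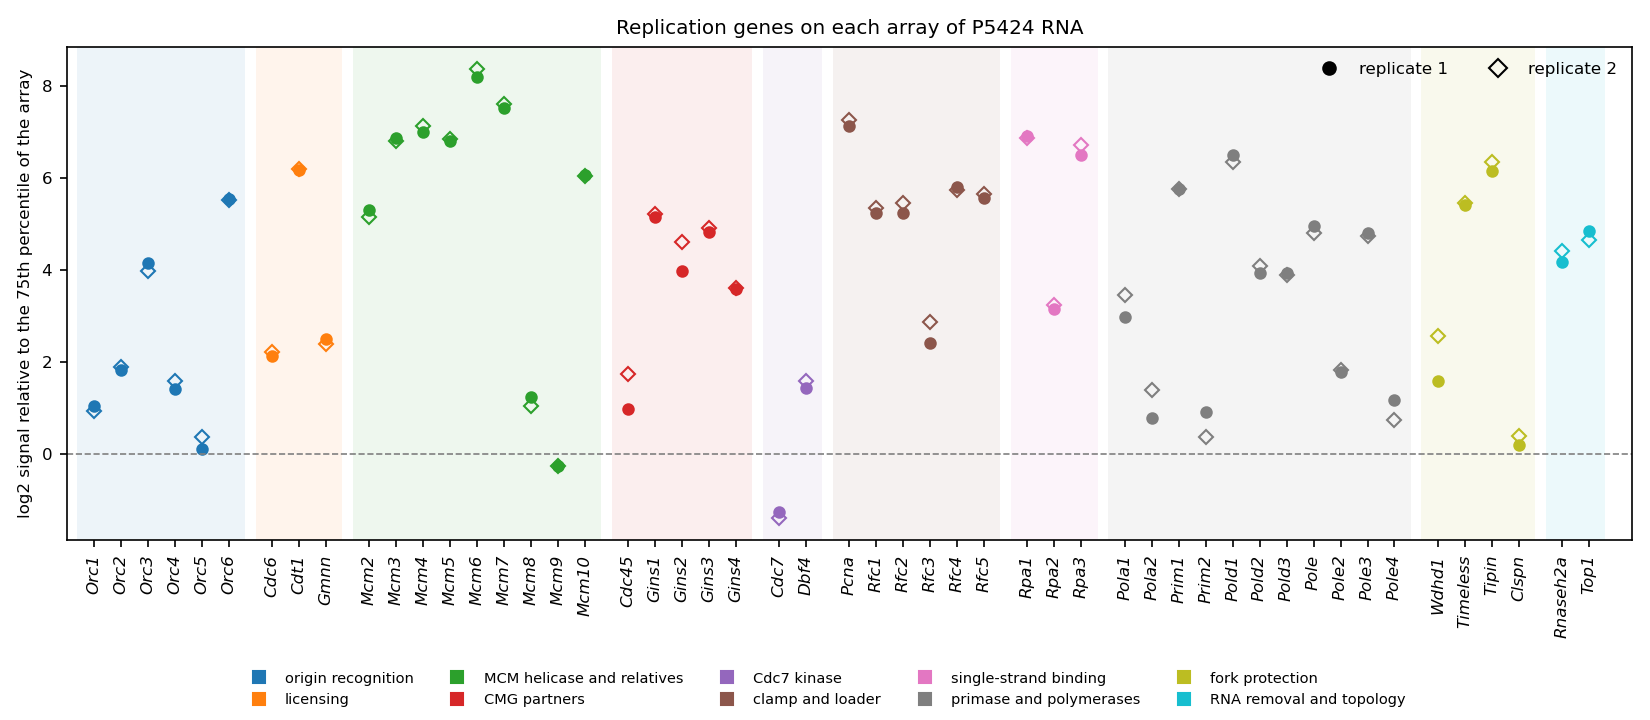
Value of each of the 51 replication genes on each array (vertical axis, log2 signal relative to the 75th percentile of the array, dashed line at 0), ordered by role, with filled circles for replicate 1 and open diamonds for replicate 2. Cdc7 and Mcm9 lie below the dashed line on both arrays, and Wdhd1, Cdc45, Gins2 and Pola2 show the widest gaps between the symbols.

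The 6 subunits of the origin recognition complex were all detected, where 54.0% of all protein-coding names were. Their differences between the arrays were -0.19 to 0.27. Orc1, an ATPase subunit of the complex, had signals of 670.4 units on replicate 1 and 564 on replicate 2 and a value of 0.98 ± 0.09. Its probe starts at base 2319 of NM_011015. Its listed position spans 908 bases, chr4:108284772-108285679 of mm9, so it is taken to cross an intron. Orc2 gave 1141 and 1112 units (1.86 ± 0.06), also from a probe across an intron, on chromosome 1. After scaling Orc1 was slightly higher on replicate 1 and Orc2 was nearly level. Orc4 gave 860.5 and 893 units (1.49 ± 0.12), Orc5 gave 346 and 384 (0.23 ± 0.19), and Orc6, the small subunit, gave 15102 and 13655 (5.53 ± 0.02). Orc5 was near the percentile on both arrays.

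Orc3, another subunit of the complex, has a pair of probes that read far apart. Both probes lie on NM_015824, with starts 471 bases apart, and the one at base 2207 (chr4:34518076-34518135 of mm9) had 5805 and 4704 units (4.07 ± 0.13). The one at base 2678 (chr4:34517605-34517664) had 122 and 86.0 units (-1.60 ± 0.27). Both were lower on replicate 2, so the probes gave the same order of the arrays from signals far apart. Bases 16 to 45 of each probe are printed to show what each reads, with no capitals because neither holds a polyadenylation signal:
Orc3, base 2207: tgcatatttgtatcaaaacgtttttggagt
Orc3, base 2678: gagaattgtaccaaaattgttcacaaatga

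Of the licensing factors, Cdc6, the ATPase that loads the helicase together with the origin recognition complex, gave 1413 and 1381 units (2.17 ± 0.06) from a probe at base 4520 of NM_011799 (chr11:98785169-98785228 of mm9). Its other probe, at base 2337, gave 1069.9 and 971 (1.71 ± 0.02). The probes lie 2183 bases apart and their values differed by 0.45. Cdt1, which brings the helicase to the origin, gave 23311.5 and 21817 units (6.18 ± 0.02). Gmnn encodes geminin, the inhibitor of Cdt1, and gave 1833 and 1557 units (2.44 ± 0.08) from a probe on the minus strand of chromosome 13. A second probe named Gmnn, taken from the cDNA AK131677, lies 10291 bases away and on the plus strand, and gave 256 and 214 units (-0.41 ± 0.10). It is the single case among the 51 genes of probes on both strands, and it does not enter the value of Gmnn.

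The Mcm2 to Mcm7 genes, which encode the subunits of the helicase ring, had values of 5.23 to 8.29 and differences between the arrays of -0.17 to 0.16. Mcm2 gave 12874 and 10566 units (5.23 ± 0.12) at chr6:88833619-88833678 of mm9. Mcm4 gave 41603 and 42000.1 units (7.07 ± 0.09), and Mcm5 gave 36375 and 34730.3 (6.84 ± 0.04). Mcm6 gave 95922 and 98760.2 units (8.29 ± 0.11), and no spot was saturated on either array. Mcm7 gave 60141 and 59026 units (7.58 ± 0.06). For each of the 6 subunits the arrays lay within 1.5-fold of each other, where 6.36% of all detected names lay further apart. Mcm3 has a pair of probes that share 43 bases of the genome: that of AK088142 gave 38289 and 33626 units (6.85 ± 0.05) and that of NM_008563, which starts 17 bases away, gave 20336 and 17577 (5.92 ± 0.07).

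Mcm8 and Mcm9, relatives of the ring subunits that are known from recombination repair rather than from the ring itself, have 2 probes each, all detected. Mcm8 gave 767 and 615 units (1.14 ± 0.14) from a probe at base 2949 of NM_025676, and 232 and 196 units (-0.54 ± 0.09) from one that starts 129 bases away. Mcm9 gave 269 and 249.6 units (-0.26 ± 0.01) from a probe of ENSMUST00000075540, and 77.6 and 92.7 units (-1.88 ± 0.26) from one of NM_027830. Both Mcm8 probes were lower on replicate 2, while the dimmer Mcm9 probe was higher there. Mcm10, which binds the activated helicase and supports its start, gave 21748 and 19689 units (6.06 ± 0.02).

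Of the helicase's partners, Cdc45 had the widest gap between the arrays, 0.76 on the log2 scale with the 75th percentile as the reference and 0.53 with the array median. It gave 637 units on replicate 1 and 995 on replicate 2 (1.35 ± 0.54), 1.70-fold higher on replicate 2. Its probe starts at base 663 of NM_009862 (chr16:18807449-18807508 of mm9, minus strand). The 4 subunits of the GINS complex, which joins Cdc45 and the ring, gave values of 3.60 to 5.19. Gins2 differed most, with 5112 and 7288 units (4.29 ± 0.45), 1.55-fold higher on replicate 2, from a probe at base 203 of NM_178856 (chr8:123112627-123112686). Gins1 gave 11598 and 11142 units (5.19 ± 0.04), Gins3 gave 9221 and 8959.8 (4.87 ± 0.05), and Gins4 gave 3918 and 3619 (3.60 ± 0.00). After scaling to the 75th percentile these 3 subunits were nearly level between the arrays, unlike Gins2.

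The kinase that activates loaded helicases has a catalytic subunit, Cdc7, and an activating one, Dbf4. Cdc7 gave 135 and 114 units (-1.33 ± 0.09) from a probe at base 420 of NM_009863 (chr5:107398228-107398287 of mm9), and 77.5 and 83.9 units (-1.95 ± 0.17) from one at base 1022. With the 75th percentile as the reference its probes put the arrays in opposite order, and both lay below the 75th percentile on both arrays. Dbf4 gave 873 and 896 units (1.51 ± 0.11), above the percentile on both.

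Pcna, the sliding clamp that holds the polymerases on DNA, gave 45778 and 46305 units (7.21 ± 0.10). Its probe of 60 bases has a listed position of 33 bases, chr2:132075022-132075054 of mm9. The clamp is opened by the loader of Rfc1 to Rfc5, whose values ran from 2.64 to 5.77. Rfc1, the large subunit, gave 12263 and 12259 units (5.30 ± 0.08), and Rfc2 gave 12335 and 13096 (5.35 ± 0.14). Rfc3 gave 1734 and 2182 units (2.64 ± 0.32) from a probe across an intron. Rfc4 gave 18189 and 15887 units (5.77 ± 0.05) from a probe at base 1153 of NM_145480 and 7335 and 7085 (4.53 ± 0.05) from one at base 287.

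Rfc5 rests on 1 of its 2 probes. The probe at base 1581 of NM_028128 (chr5:117829243-117829302 of mm9) gave 15349 and 15161 units (5.62 ± 0.07). The probe of ENSMUST00000111953 at base 712 (chr5:117836290-117836349) gave 12.4 and 14.5 units and was not well above background on either array. The same held for Pole, the catalytic subunit of polymerase epsilon, where the probe at base 3567 of NM_011132 gave 13.8 and 7.90 units, and for Wdhd1, where the probe of ENSMUST00000111790 at base 2172 gave 13.4 and 8.24 units. These 3 undetected probes had GC contents of 35% (Rfc5), 35% (Pole) and 21.7% (Wdhd1), where the 72 probes ran from 21.7% to 55% with a median of 40%. The part of base composition in these readings was not tested. Bases 16 to 45 of the undetected probe and of the probe that gave the gene its value are set side by side:
Rfc5, base 712, not detected: taaaattatgttcattactacttcacaact
Rfc5, base 1581, used: caacagtttgccttcagactgcacacctca
Pole, base 3567, not detected: ctagagaagaatgatatctacaaacagaag
Pole, base 7031, used: acgtcatcatgccataaacagacagaagca
Wdhd1, base 2172, not detected: cattgatttaaaaataccctacatttaaaa
Wdhd1, base 2985, used: ttataaagcctctcactcccaagccaaggt

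The single-strand binding protein RPA coats the DNA that the helicase unwinds. Its large subunit Rpa1 gave 39184 and 35036 units (6.90 ± 0.03) from a probe at base 2909 of NM_001164223 (chr11:75113898-75113957 of mm9), and 15403 and 15066 (5.61 ± 0.06) from a probe that starts 162 bases away. Rpa2 gave 2876 and 2834 units (3.20 ± 0.07), and Rpa3 gave 29572 and 31727 (6.62 ± 0.16). All 3 subunits were above the 75th percentile on both arrays, where 67.1% of all detected gene names were. Their differences between the arrays ran from -0.04 to 0.22.

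Primase and polymerase alpha lay the primers. Pola1, the catalytic subunit of polymerase alpha, gave 2568 and 3272 units (3.22 ± 0.33), and its partner Pola2 gave 555 and 785 (1.08 ± 0.44), 1.54-fold higher on replicate 2. The Pola2 probe starts at base 1472 of NM_008893 (chr19:5946484-5946543 of mm9). Prim1, the catalytic primase subunit, gave 17542 and 16269.6 units (5.76 ± 0.01). Prim2, the large primase subunit, gave 604 and 387 units (0.64 ± 0.37), 1.44-fold higher on replicate 1, which was the widest gap in that direction among the 51 genes. Its second probe also read higher on replicate 1, with 134 and 95.4 units (-1.46 ± 0.26). The 4 genes of this complex shifted in different ways: both polymerase alpha genes were higher on replicate 2, Prim2 was higher on replicate 1 and Prim1 was level with the 75th percentile as the reference.

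Polymerase delta copies the lagging strand. Its catalytic subunit Pold1 gave 29635 and 24495 units (6.44 ± 0.11) from a probe across an intron, and its accessory subunits Pold2 and Pold3 gave 4928 and 5062 (values of 3.93 and 4.08, SD 0.11) and 4993 and 4441 (3.92 ± 0.04). Polymerase epsilon copies the leading strand, and Pole gave 10139 and 8364 units (4.89 ± 0.11) at base 7031 of NM_011132 (chr5:110766375-110766434 of mm9) and 504 and 541 (0.75 ± 0.16) from a probe of AK165879. Its subunit Pole2 gave 1111 and 1061 units (1.80 ± 0.04). Pole3 and Pole4 are histone-fold subunits of the same polymerase. Pole3 gave 9056 and 7995 units (4.77 ± 0.04) from one probe and 1808 and 2119 (2.65 ± 0.25) from another that crosses an intron, and Pole4 gave 729.8 and 495 (0.95 ± 0.31). Of the polymerase epsilon genes Pole4 had the widest gap, with the higher signal on replicate 1.

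Wdhd1, which ties polymerase alpha to the helicase, had the widest gap of the 51 genes with the 75th percentile as the reference (0.97 on the log2 scale), while with the array median Prim2 did (-0.75, beside 0.74 for Wdhd1). It gave 973 units on replicate 1 and 1758 on replicate 2 (2.07 ± 0.69), 1.96-fold higher on replicate 2, from a probe at base 2985 of NM_172598 that crosses an intron (chr14:47864781-47865014 of mm9). Its other probe was not well above background, so the gap rests on 1 probe with 1 spot per array. Tipin, which with Timeless steadies the fork, gave 23205 and 24368 units (6.26 ± 0.13). Clspn encodes claspin, the adaptor that passes the fork's stress signal to a checkpoint kinase, and gave 368 and 389 units (0.28 ± 0.14).

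Timeless shows how far probes of one transcript can differ at close range. Both lie on NM_001164081 with starts 94 bases apart. The probe at base 4284 (chr10:127689823-127689882 of mm9) gave 13776 and 13115 units (5.43 ± 0.03), and the probe at base 4378 (chr10:127689917-127689976) gave 1219.5 and 1086 (1.89 ± 0.03). Both readings were nearly level between the arrays after scaling. Each probe holds AATAAA or ATTAAA, the common forms of the polyadenylation signal, shown in capitals in the 30 bases printed:
Timeless, base 4284: ATTAAAagacatgtcctgaactgagcttgg
Timeless, base 4378: tacgcgtgggccAATAAAtgtaatttaaaa
These letters are in 13 of the 72 probes (18.1%) and in 13.7% of all non-control probes, and whether either is used as a signal was not analysed here.

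Rnaseh2a, the catalytic subunit of the RNase that removes RNA from DNA, has 5 probes, all detected. They gave 5859 and 6349.9 units at base 516 of NM_027187 (4.29 ± 0.17), 5753 and 5785 at base 798 (4.21 ± 0.09), 1433 and 1111 at base 1984 (2.02 ± 0.18), 324 and 292 at base 1009 (-0.02 ± 0.02), and 68.9 and 77.9 from a probe of ENSMUST00000140561 (-2.09 ± 0.21). The first pair read alike, while the brightest and the dimmest lay 6.38 apart on the log2 scale. Top1, which relaxes the twist ahead of the fork, gave 9403 and 7524 units (4.76 ± 0.14), higher on replicate 1.

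**Figure D2:**
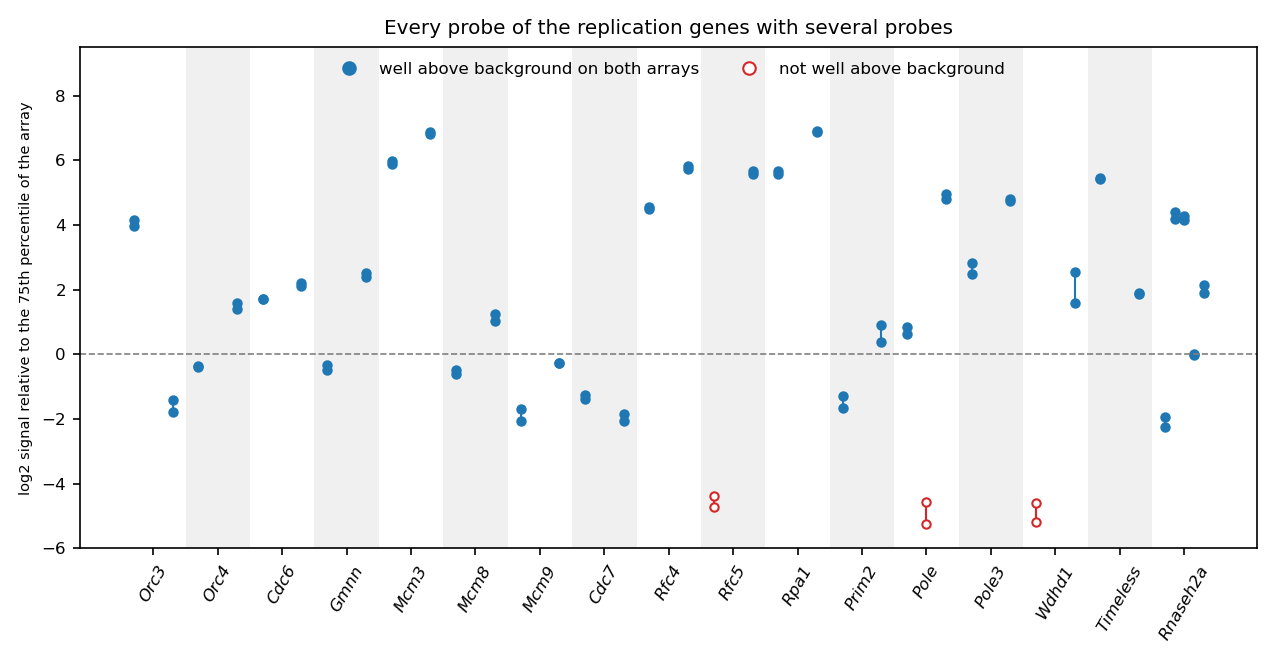
Value of each probe on each array for the 17 replication genes with more than 1 probe (vertical axis, log2 signal relative to the 75th percentile of the array, 2 joined points per probe), with red open symbols for probes not well above background. Probes of 1 gene lie far apart in Timeless, Orc3 and Rnaseh2a, while the 2 arrays lie close together for most probes.

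Probes of one gene often gave different levels. There were 24 pairs of detected probes in 15 genes. Their values differed by 0.08 to 6.38 on the log2 scale and by over 1 in 20 of the pairs. Their differences between the arrays lay at most 0.54 apart, with a median of 0.18, beside a median absolute difference between the arrays of 0.13 over the 51 genes. As a measure of spot noise, probes printed on 10 spots had a median SD between spots of 0.06 on replicate 1 and 0.07 on replicate 2, but each replication probe is on 1 spot.

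The difference between the arrays, replicate 2 minus replicate 1, was within 0.2 on the log2 scale for 37 of the 51 genes (72.5%), beside 56.6% of all detected gene names, and with the array median as the reference for 23 (45.1%), beside 34.9%. The median absolute difference was 0.13, beside 0.17 over all detected names, and with the array median it was 0.22, beside 0.28. With another background correction (normexp) the shares within 0.2 were nearly equal, 64.7% beside 62.8%. The median absolute differences were then 0.145 and 0.150. The replication genes also had brighter signals than the rest (median value 4.29, beside 1.70), and the part of brightness in the closeness was not tested. No gene was over 2-fold apart in either direction, where 0.635% of all detected names were over 2-fold higher on replicate 2 and 0.330% over 2-fold higher on replicate 1. Wdhd1 came closest, and with the percentile taken over detected probes its gap passes 2-fold. Over 1.5-fold apart were 4 genes, Wdhd1, Cdc45, Gins2 and Pola2, where the share of all detected names was 6.36%. All 4 were higher on replicate 2, but with the array median as the reference the count was 1 on that side (Wdhd1) and 2 on the other (Prim2 and Pole4). Of the 4 genes, Wdhd1 and Cdc45 lay above the central 95% of all detected names, which ran to 0.66.

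**Figure D3:**
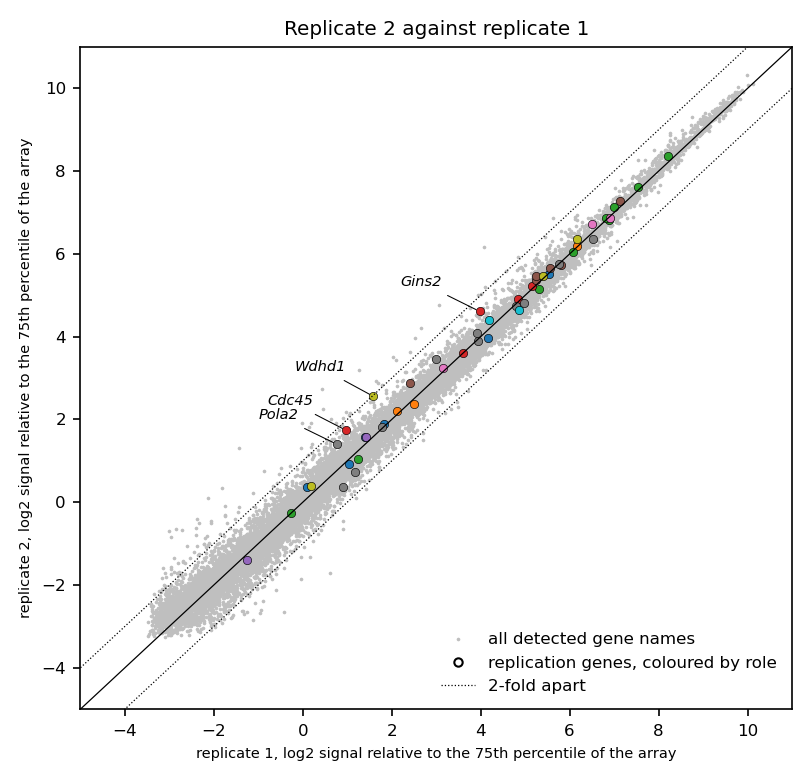
Value on replicate 2 (vertical axis) against replicate 1 (horizontal axis), both as log2 signal relative to the 75th percentile of the array, for all detected gene names (grey) and the 51 replication genes (coloured by role). Every replication gene lies between the dotted lines of 2-fold, and Wdhd1, Cdc45, Gins2 and Pola2 lie furthest above the diagonal.

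With the 75th percentile as the reference, 33 of the 51 genes (64.7%) were higher on replicate 2 by any amount, beside 46.9% of all detected names, but with the array median as the reference 8 were (15.7%), beside 18.4% of all detected names. The direction, and the order of these shares, thus turn with the scaling. The median difference was 0.06 over the replication genes and -0.02 over all detected names, and with the array median it was -0.17 and -0.25. The array median lowers the difference of every gene alike, so the distance between the replication genes and the rest stayed as it was. By role, 5 of 5 helicase partners were higher on replicate 2 with the 75th percentile and 2 with the array median. For the clamp and its loader the counts were 5 of 6 and 1, for fork protection 4 of 4 and 1, and for primase and the polymerases 5 of 11 and 2. For origin recognition they were 3 of 6 and 1, for licensing 2 of 3 and 0, and for the MCM genes 5 of 9 and 0. The RPA genes had 2 of 3 and 0, the kinase genes 1 of 2 and 0, and Rnaseh2a and Top1 together 1 of 2 and 1. Whether the roles differ was not tested.

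**Figure D4:**
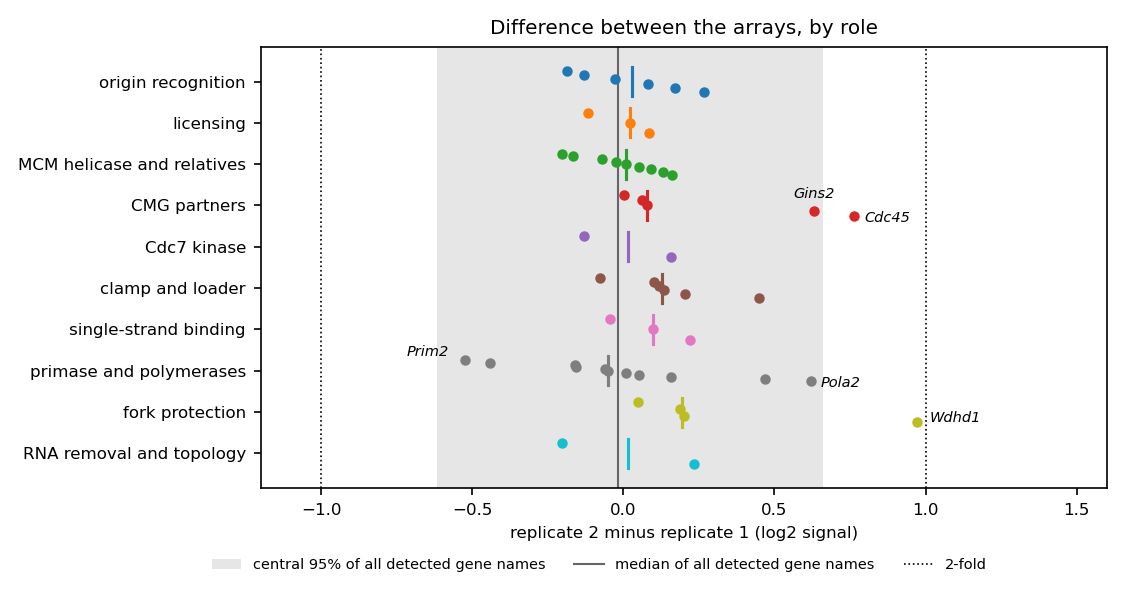
Difference between the arrays for each replication gene (horizontal axis, replicate 2 minus replicate 1 in log2 signal after scaling to the 75th percentile; points are genes and short bars are medians by role), with the central 95% of all detected gene names in grey and 2-fold as dotted lines. All 5 helicase partners lie at or above 0, and Prim2 lies furthest to the left. With the array median as the reference all points move to the left alike, which puts 3 of the 5 partners below 0.

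A probe's place in its transcript moved with the difference between the arrays across the whole array, a relation looked for after the values were seen. Over 1728 transcripts with 2 detected probes at least 500 bases apart, the probe nearer the 5′ end had the higher difference in 1286 (74.4%), with median differences of 0.16 for the 5′ probes and -0.09 for the 3′ probes. The Gins2 and Cdc45 probes lie at bases 203 and 663 of their transcripts, the Wdhd1 probe at base 2985 and the Pola2 probe at base 1472. The lengths of these transcripts were not looked up. Of the 5 replication genes with such a pair of probes, Rfc4 and Rnaseh2a had the higher difference at the 5′ probe, and Cdc6, Cdc7 and Orc4 had it at the 3′ probe. The part of probe position in the gaps of Gins2, Cdc45, Wdhd1 and Pola2 was not tested.

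The related list holds 34 other genes of the pathway, among them nick sealing, chromatin assembly, nucleotide supply and origin control. All 34 were detected, and for 31 every probe was, where the shares of protein-coding names were 54.0% and 46.6%. Their median value was 4.48, beside 1.70 over all detected names. Their median difference between the arrays was -0.01, beside -0.02. None of the 34 was over 2-fold apart between the arrays. Of all detected names, 0.635% were over 2-fold higher on replicate 2 and 0.330% on replicate 1, so few would be among 34 genes. Lig1, the ligase that seals Okazaki fragments, gave 41966 and 41800.5 units (7.07 ± 0.08), and Fen1, the nuclease that trims their flaps, gave 15640.1 and 14875 (5.62 ± 0.03). Dna2, a nuclease and helicase for long flaps, gave 1210.4 and 1155 units (1.93 ± 0.04), and Pold4, the small subunit of polymerase delta, gave 578 and 528 (0.83 ± 0.01).

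The promoters of the replication genes were read as sequence, since all 51 genes were detected in the same cells. RefSeq promoter windows of build GRCm38.p6, from 250 bases before to 50 after an annotated start, were given for 42 of the 51 genes, with 49 windows. Gins1, Gins2, Gins4, Gmnn, Mcm4, Pole, Prim2, Rfc2 and Tipin had none in the table. The E2F-type motif was searched as TTTCCCGC, TTTCGCGC, TTTGCCGC and TTTGGCGC on both strands with overlaps allowed. It was found in 17 of the 42 genes (40.5%), in 7 of 29 genes of the related list (24.1%), in 575 of 17492 protein-coding genes of the table (3.29%) and in 383 of the 7846 genes that were detected on both arrays (4.88%). A match is a description of the letters and not a shown binding site.

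The 17 genes with a match were Orc1 and Orc3 of the origin recognition complex, Cdc6 and Cdt1 of licensing, Mcm3, Mcm5, Mcm6, Mcm7 and Mcm8, Gins3, Rfc3, Clspn, and Pola1, Pold1, Pold3, Pole2 and Pole4 of the polymerases. The MCM genes held a match in 5 of 8 cases, and the clamp and loader genes in 1 of 5. The RPA genes (0 of 3), the kinase genes (0 of 2), and Rnaseh2a and Top1 (0 of 2) did not hold these letters in the window. Counted once per place in the genome there were 23 matches, 9 of TTTCCCGC, 8 of TTTGGCGC, 6 of TTTCGCGC and 0 of TTTGCCGC. Of these, 13 lay before the annotated start and 10 after it. In 14 genes a match lay within 100 bases before the start or after it.

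The stretches before the start are printed for the genes that open the pathway, Orc1 and Cdc6, and for the helicase genes Mcm5, Mcm6 and Mcm7, 5′ to 3′ on the strand of the gene, with E2F-type matches in capitals. Where capitals run to 12 bases, a match on one strand overlaps a match on the other. They lie at chr4:108579407-108579453 (plus strand, Orc1), chr11:98907993-98908040 (plus, Cdc6), chr8:75109336-75109387 (plus, Mcm5), chr1:128359725-128359835 (minus, Mcm6) and chr5:138172021-138172068 (minus, Mcm7) of GRCm38.p6:
Orc1: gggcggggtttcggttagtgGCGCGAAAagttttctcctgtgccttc
Cdc6: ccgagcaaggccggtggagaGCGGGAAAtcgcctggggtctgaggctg
Mcm5: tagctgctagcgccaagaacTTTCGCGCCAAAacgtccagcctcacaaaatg
Mcm6: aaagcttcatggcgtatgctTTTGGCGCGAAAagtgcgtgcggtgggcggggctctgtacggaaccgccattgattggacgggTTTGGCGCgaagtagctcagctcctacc
Mcm7: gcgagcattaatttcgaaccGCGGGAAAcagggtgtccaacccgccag
Mcm6 holds 3 matches in this stretch, an overlapping pair and a single one nearer the start, and Mcm5 holds an overlapping pair. The Mcm7 stretch runs from -185 to -138 relative to the start. Ap4m1 starts 138 bases from Mcm7 on the opposite strand, so the stretch lies on the side that Ap4m1 reads. The Orc3 match at -41, not printed, likewise lies past the start of Rars2, which is 15 bases away.

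**Figure D5:**
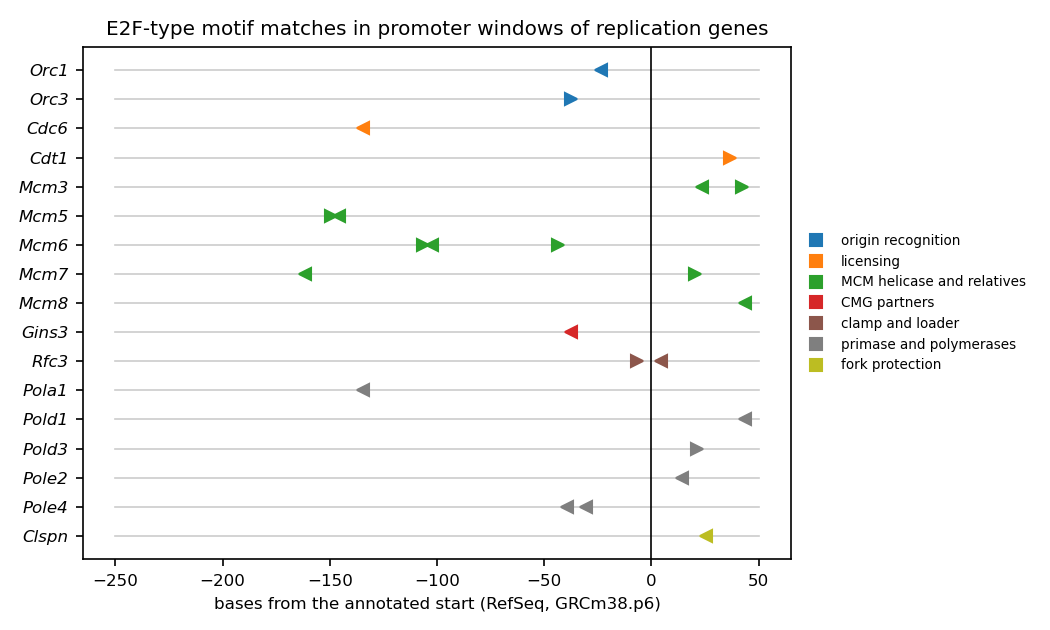
Place of each E2F-type match (horizontal axis, bases from the annotated start, RefSeq windows of GRCm38.p6) in the 17 replication genes that hold one, with right-pointing symbols for the strand of the gene and left-pointing ones for the other strand. A match lies within 100 bases of the start or after it in 14 genes, and the symbols of Pole4 show 1 place counted from each of 2 annotated starts.

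Other promoter letters differed less from the rest of the genome. CCAAT was in 25 of 42 replication genes (59.5%), beside 42.3% of all protein-coding genes and 43.4% of the detected ones, and all 8 MCM genes in the table held it. The GC box GGGCGG was in 32 of 42 (76.2%), beside 49.2% of all and 69.1% of the detected genes. TATAAA was in 2 of 42 (4.76%), beside 14.8% and 8.13%. Each was searched on both strands with overlaps allowed, and the median GC content of the windows was 62.7%, beside 56.3% over all genes and 60.7% over the detected ones.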

How the data were processed

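The scanner values are intensity values that the authors obtained, per the file headers, with Agilent Feature Extraction 10.5.1.1, which subtracted a spatial background, removed a multiplicative trend and did not scale between arrays. Flags for background, saturation and outliers were set by the same software. The authors also deposited log2 values of the same spots, whose background step and offset are not given in the sources used here. Their columns have medians of 5.18, differ by at most 0.0125 when sorted and follow the log2 scanner values of the same array with slopes of 0.997 and 1.01. They served as an alternative.

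Outlier spots were left out (182 and 186), log2 signal was averaged per probe over its spots, and the 75th percentile over the 55681 non-control probes of the array was subtracted. A probe with several spots was detected when at least 50% of them were well above background, and a gene when any of its probes was. Probe positions are on mm9 in the files. Promoters and gene types came from RefSeq tables of GRCm38.p6, matched by symbol, with all 51 genes matched. Of the 34 related genes, 2 were matched through an older symbol. A probe is said to cross an intron where its listed genomic position spans over 65 bases, without a check against exon models. The place of a probe relative to exons and UTRs was not analysed here.

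With 1 group of 2 arrays there was no test between groups, and precision is limited by having 2 arrays. The steps were run on simulated data, with detection flags copied from the real arrays and genes moved by well over the 2-fold cutoff. That run checks neither the detection calls nor gaps under 2-fold. All 51 genes may be named, by role, and of the related list the first 4 detected. The members, the lists and the comparisons were chosen with earlier results of these data known, and the promoter, neighbour and probe position comparisons were added after the values were seen. Alternatives covered scaling, background correction (normexp with an offset of 50 in limma 3.58.1 under R 4.3.3), probe choice, detection rule, outlier spots and each array alone. Python 3.11.15, numpy 2.4.6, pandas 2.3.3 and matplotlib 3.10.9 were used.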

Additional observations from a re-analysis of the deposited data

How the results depend on the processing

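No paired analysis was possible because both arrays belong to 1 group. All 51 replication genes and all 34 related genes were detected under the main rule. Detection on either array or on 1 array alone is looser, so these alternatives could not give fewer. The flag for a positive and significant signal passed more of all gene names (66.1%, beside 46.1%) and gave 51 and 34. Keeping outlier spots also gave 51 and 34. The stricter rule, that every probe be detected, gave 48 and 31, beside 37.8% of all gene names. With the percentile taken over detected probes 1 gene, Wdhd1, was over 2-fold apart and the median value of the replication genes was 0.78. With the array median as the reference that value was 8.29, the median difference between the arrays was -0.17 and 8 genes were higher on replicate 2 (15.7%, beside 18.4% of all detected genes). Averaging a gene's detected probes gave a median value of 3.71, and each array alone gave 4.18 to 4.61. The distance of that median to that of all detected genes, 2.59, became 2.72 with normexp, 2.47 with averaged probes and 7.78 with no filter on dim probes, which adds undetected genes to the comparison. For single genes, normexp moved 39 of 51 values by more than their own SD (by -0.48 to 0.36), the deposited log2 values moved 16 (by -0.01 to 0.09), and the percentile over detected probes lowered all alike, by 3.51. The cause of these shifts was not tested. Of the 49 alternative values for the list as a whole, 38 stayed within the spread of a replicate or within 1.5 times the count, and 11 did not. Some of the 38 could not move: looser detection rules keep full counts, and a shift of all values alike cancels in the distance between medians. The count of 38 is thus no measure of robustness. The signals of Cdc7 and of the dimmer Mcm9, Orc3, Prim2 and Rnaseh2a probes lie nearest to the background and are the least secure.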

Other observations

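Several replication genes start close to a gene on the opposite strand. In the RefSeq table, 10 of 42 replication genes (23.8%) had an opposite-strand start within 1000 bases upstream, with both genes reading outward, beside 8.48% of all protein-coding genes and 14.1% of the genes detected on both arrays. Orc3 and Rars2, the gene of a mitochondrial arginine tRNA ligase, start 15 bases apart, Rpa1 and Smyd4 50, Wdhd1 and Socs4 63, Orc1 and Prpf38a 118, Dbf4 and Slc25a40 122, and Mcm7 and Ap4m1 138. Of the 8 neighbours with a probe, 7 were detected on both arrays (87.5%), beside 89.0% of all genes with a probe that have such a neighbour. The Orc3 neighbour Rars2 gave 5837 and 4405 units (4.03 ± 0.20), and the Mcm7 neighbour Ap4m1, a subunit of an adaptor complex in vesicle traffic, gave 378 and 373 (0.27 ± 0.07). The neighbours were looked up after the values were seen, and no test was made.

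The 51 genes lie on 16 chromosomes. Chromosome 5 holds 9 of them (Orc5, Mcm7, Cdc7, Dbf4, Rfc1, Rfc2, Rfc3, Rfc5 and Pole), chromosome 8 holds 7 and chromosome 2 holds 6.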
